A study of Mus musculus with 16 samples.

Results

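Cell proliferation genes, 35 in all, were followed in kidney RNA of 16 mouse libraries. The set was given by name as genes of DNA replication and mitosis, and all 35 are among the 40879 gene symbols counted. The groups were Old + PM (3 libraries), Old + YM (3 libraries), Old (5 libraries, untreated) and Young (5 libraries, 3 months of age), all from male wild-type C57BL/6 mice. PM is Palmijihwang-tang and YM is Yukmijihwang-tang, herbal formulas. Each was given by mouth between 19 and 24 months of age, 5 days weekly, with a daily dose of 100 mg/kg. In 1 place the protocol names YM where PM is dosed, and the group names were followed. An acclimatization of 5 months is stated for the aged mice and none for Young, so age and housing cannot be told apart, and no age at sampling was found for Old in the labels. Whether every library came from its own mouse is not stated, so p-values speak only of the spread among libraries, which may be technical. The questions were what ageing does to these genes in the kidney and what either formula does to them at old age.

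A dividing cell copies its DNA in S phase and parts the copies in mitosis. MCM proteins form the helicase that opens DNA at replication origins, and cyclins bound to CDK1 drive entry into mitosis, where Aurora and Polo kinases, kinesin motors and the kinetochore build and check the spindle. In the adult kidney most tubule cells are out of the cell cycle and divide mainly after injury, so transcripts of mitosis genes are scarce. In bulk RNA, fewer dividing cells and less RNA per dividing cell cannot be told apart, nor can the type of cell that divides.

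Promoters of these genes are shown because mitosis and replication members carry different short motifs there. Whether the motifs bear on the levels given below was not tested. RefSeq promoters of build GRCm38.p6, from 250 bases before to 50 bases after the transcription start, were available for 29 of the 35 members, as 31 sequences. Sought on both strands were TTTGAA, the cell cycle genes homology region (CHR), the CCAAT box, and an E2F-like site. The E2F-like site was spelled TTGGCGC, with further spellings TTCCCGC for one variant, TTCGCGC for another variant and TTGCCGC for a last one, and matches that overlap were counted separately. Capitals in the sequences mark every match, written 5′ to 3′ on the strand of the gene. Members with mitotic roles come first, beginning with Cenpa, the 1 member that passed the test between Old and Young.
Cenpa chr5:30666636-30666935 (plus strand): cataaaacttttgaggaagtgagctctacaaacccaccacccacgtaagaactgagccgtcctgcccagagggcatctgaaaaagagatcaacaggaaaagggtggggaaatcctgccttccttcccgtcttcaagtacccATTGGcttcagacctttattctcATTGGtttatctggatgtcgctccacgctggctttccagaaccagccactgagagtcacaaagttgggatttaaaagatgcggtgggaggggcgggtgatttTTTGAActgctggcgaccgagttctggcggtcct
Mki67 chr7:135716330-135716629 (minus strand): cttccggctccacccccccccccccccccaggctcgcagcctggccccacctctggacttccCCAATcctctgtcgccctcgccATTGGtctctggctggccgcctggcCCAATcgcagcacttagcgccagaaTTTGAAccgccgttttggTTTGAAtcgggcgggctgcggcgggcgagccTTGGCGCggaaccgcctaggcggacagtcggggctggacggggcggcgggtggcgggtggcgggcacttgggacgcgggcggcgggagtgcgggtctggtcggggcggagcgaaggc
Top2a chr11:99024140-99024439 (minus strand): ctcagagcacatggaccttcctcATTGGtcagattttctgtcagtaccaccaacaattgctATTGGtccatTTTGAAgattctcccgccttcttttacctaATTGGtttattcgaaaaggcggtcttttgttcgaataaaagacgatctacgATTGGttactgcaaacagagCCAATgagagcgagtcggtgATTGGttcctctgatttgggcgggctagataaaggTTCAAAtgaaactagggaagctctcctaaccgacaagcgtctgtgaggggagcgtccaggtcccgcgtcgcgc
Plk1 chr7:122159185-122159484 (plus strand): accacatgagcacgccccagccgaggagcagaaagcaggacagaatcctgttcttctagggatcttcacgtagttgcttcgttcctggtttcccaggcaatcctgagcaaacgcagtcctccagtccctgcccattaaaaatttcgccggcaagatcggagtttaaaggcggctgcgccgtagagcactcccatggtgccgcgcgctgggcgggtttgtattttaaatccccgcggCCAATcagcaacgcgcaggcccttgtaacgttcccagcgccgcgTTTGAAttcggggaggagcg
Ccnb2 chr9:70421505-70421804 (minus strand): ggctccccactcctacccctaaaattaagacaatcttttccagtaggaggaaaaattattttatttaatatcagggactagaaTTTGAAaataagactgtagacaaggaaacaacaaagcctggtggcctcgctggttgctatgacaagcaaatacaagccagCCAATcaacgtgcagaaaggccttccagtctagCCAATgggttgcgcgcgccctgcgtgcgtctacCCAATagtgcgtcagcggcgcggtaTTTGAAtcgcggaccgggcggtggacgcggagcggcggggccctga
The replication members Mcm3 and Mcm6, subunits of the helicase, follow for contrast.
Mcm3 chr1:20820263-20820562 (minus strand): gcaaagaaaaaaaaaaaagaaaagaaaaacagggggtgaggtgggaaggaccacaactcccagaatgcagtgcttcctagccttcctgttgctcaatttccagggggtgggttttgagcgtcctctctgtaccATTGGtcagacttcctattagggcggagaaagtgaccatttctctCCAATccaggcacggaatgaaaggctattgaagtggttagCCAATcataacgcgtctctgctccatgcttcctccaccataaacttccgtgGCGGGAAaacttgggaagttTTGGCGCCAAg
Mcm6 chr1:128359656-128359955 (minus strand): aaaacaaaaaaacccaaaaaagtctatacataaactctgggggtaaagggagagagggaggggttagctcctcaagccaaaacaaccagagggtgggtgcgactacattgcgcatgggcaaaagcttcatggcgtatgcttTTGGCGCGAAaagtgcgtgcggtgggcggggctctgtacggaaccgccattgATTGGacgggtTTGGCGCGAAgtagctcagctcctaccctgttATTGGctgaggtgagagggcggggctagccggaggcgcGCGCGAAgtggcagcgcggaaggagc
Counting the transcription start as base 1, Cenpa has its CHR match starting at base 17. Ccnb2 has one starting at base 5 and another at -167. Top2a has CHR matches at -179 and -23, and 6 CCAAT matches. Mcm3 has no CHR match, and E2F-like matches starting at bases 20, 40 and 43, of which the last 2 overlap. Of 20 promoters of mitosis members (roles from the cyclins to the spindle with Mki67 and Top2a, without Stmn1 and Hmgb2), 15 (75%) held a CHR match, against 17.9% of all 32851 promoters of the table. Of 10 promoters of replication and nucleotide members, 1 (10%) held CHR and 7 (70%) an E2F-like match, against 9.57% of all promoters, while 3 (15%) of the mitosis promoters held an E2F-like match. CCAAT stood in 28 of the 31 member promoters (90.3%), against 37.4% of all. These are counts of promoters, and Prc1 and Mcm7 enter with 2 each. The Prc1 pair overlaps and shares its CHR and CCAAT matches, and both Mcm7 promoters hold an E2F-like match. A match describes these letters and is not evidence of binding.

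Totals ran from 8223008 to 10914515 counts per library, and 1 CPM (the count scaled to library size after TMM, edgeR's trimmed mean scaling) equals 7.62 to 11.3 counts. Proximal tubule markers of the kidney summed to 27058 to 34751 CPM in Old + PM, 23475 to 25778 CPM in Old + YM, 27671 to 32926 CPM in Old 1 to 4, 19842 CPM in Old 5 and 41172 to 49056 CPM in Young. Of the 35 members, 32 passed the filter on low counts and were tested among 14665 genes with edgeR. The 3 removed were Aurkb, a mitotic kinase, Bub1, a spindle checkpoint kinase, and Kif20a, a kinesin of cell division. In Old 5 they had 11, 11 and 10 counts. In the other 15 libraries Aurkb had at most 5 counts, Bub1 at most 5 and Kif20a at most 9. For a library with none, 3 counts is the limit that a count of 0 allows, which is 0.265 to 0.394 CPM, and such limits cover counting error only.

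Old 5 stood apart from every other library in these genes. It was the highest of 16 libraries for 28 of the 32 tested members (87.5%), against 13.4% of all tested genes, and for 31 of all 35. The 4 others were Mcm7, Pcna, Tyms and Stmn1. Old 5 held a median of 3.03 times the mean level of Old 1 to 4 over the tested members, with a range of 1.14 for Pcna to 7.46 for Bub1b, and the median over all genes was 1. For 15 of 32 members its gap to the next Old library was over 0.71 of the range of Old, against 3.57% of all genes. For the 20 tested mitosis members that median was 3.89, and 19 of them (95%) were more than 2-fold above Old 1 to 4, against 7.82% of all genes. For the 10 replication and nucleotide members it was 2.04. Summed over 23 mitosis members, the level was 39.9 to 50.1 CPM in Old + PM, 40.04 to 44.04 CPM in Old + YM, 36.9 to 58.5 CPM in Old 1 to 4, 174 CPM in Old 5 and 43.9 to 60.4 CPM in Young. Outside Old 5, these ranges overlap between all 4 groups. Summed over all 35 members, the level averaged 184.5 ± 6.26 CPM in Old + PM (SD, n = 3), 179.6 ± 6.53 CPM in Old + YM (SD, n = 3), 232.2 ± 98.6 CPM in Old (SD, n = 5) and 198.4 ± 14.3 CPM in Young (SD, n = 5), and in Old without Old 5 it averaged 188 ± 8.76 CPM (SD, n = 4).

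**Figure D1:**
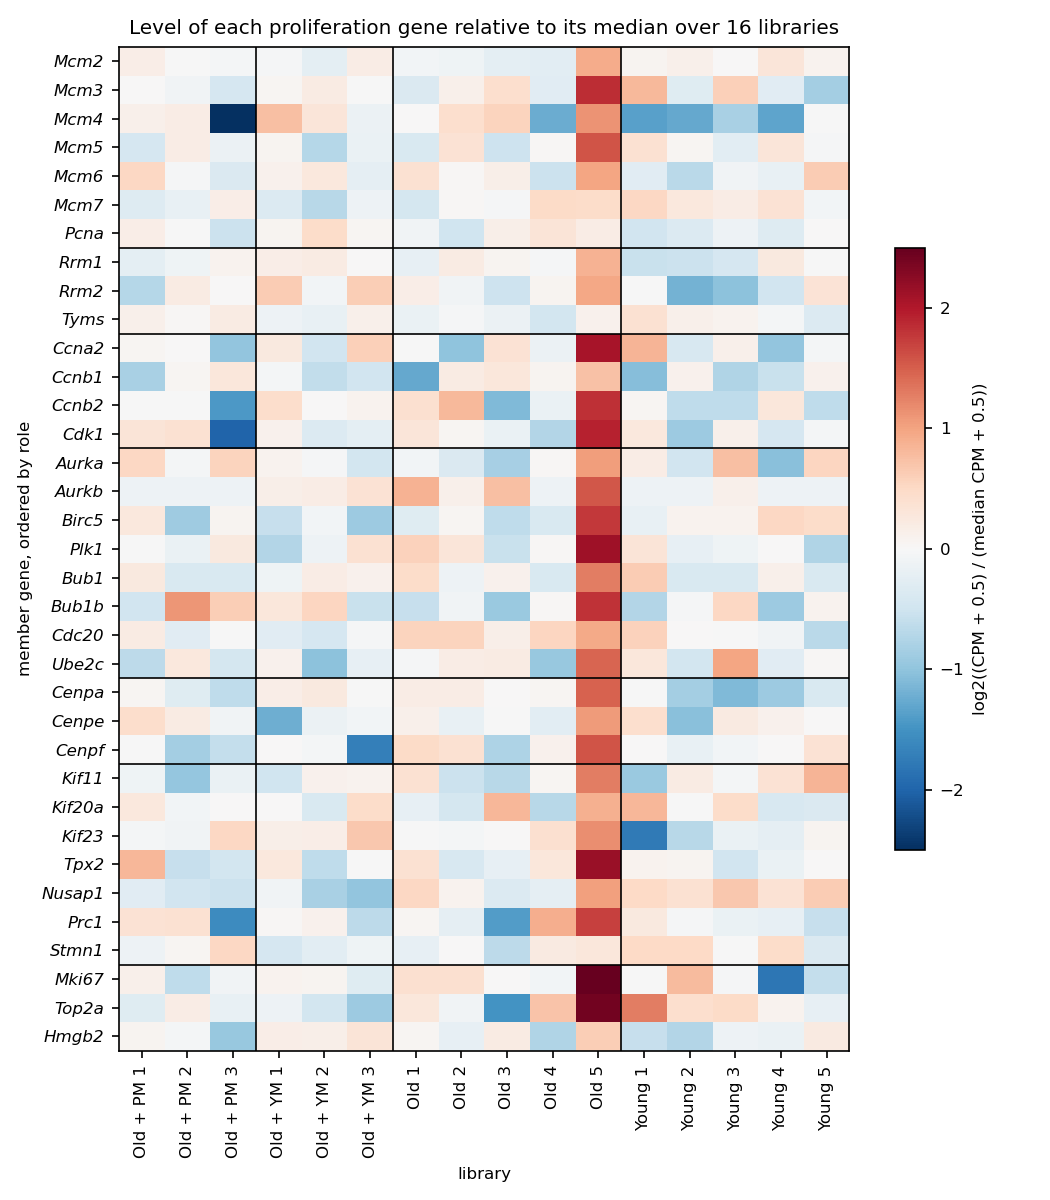
Colour gives the level of each member (rows, ordered by role with lines between roles) in each library (columns) as log2 of CPM plus 0.5 over the member's median over 16 libraries plus 0.5. Old 5 is the highest library for 31 of 35 members, and Old + PM 3 is low for Mcm4, Cdk1, Ccnb2 and Prc1.

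Markers of several other cell types were also high in Old 5. The 13 T and NK cell markers summed to 15.4 to 44.2 CPM in Old + PM, 11.8 to 14.8 CPM in Old + YM, 12.8 to 20.05 CPM in Old 1 to 4, 189 CPM in Old 5 and 4.99 to 7.92 CPM in Young. Of that Old 5 sum, 122 CPM was Ccl5, a chemokine of T cells and other leukocytes. The 13 macrophage and dendritic cell markers summed to 282 to 537 CPM in Old + PM, 247 to 292 CPM in Old + YM, 182 to 351 CPM in Old 1 to 4, 1069 CPM in Old 5 and 167 to 209.8 CPM in Young. The 11 B and plasma cell markers summed to 124 to 153 CPM in Old + PM, 252 to 486 CPM in Old + YM, 179 to 248 CPM in Old 1 to 4, 251 CPM in Old 5 and 46.3 to 105 CPM in Young, so Old 5 did not lead there. Among them Ms4a1, which encodes the B cell antigen CD20, had 0 counts in Old 5. No gene of these 3 lists was at 0 in all libraries. At 0 in at least 1 library were 10 of the T and NK cell markers, Cd3e, Cd4 and Cd8a among them, as well as Flt3 of the macrophage list and Cd79a and Ms4a1, among others, of the B cell list. The 9 markers of fibroblasts, pericytes and smooth muscle summed to 148 to 328 CPM in Old + PM, 247 to 322 CPM in Old + YM, 178 to 295 CPM in Old 1 to 4, 431 CPM in Old 5 and 169.5 to 206 CPM in Young, highest in Old 5 and none of them at 0 in a library. The 11 markers of injured tubule summed to 720.3 to 771 CPM in Old + PM, 766 to 1011 CPM in Old + YM, 639 to 822 CPM in Old 1 to 4, 982 CPM in Old 5 and 504 to 565 CPM in Young, where Old 5 had rank 2 of 16 and Havcr1 and Krt20 were at 0 in some library. The 8 neutrophil markers summed to 1.86 to 22.9 CPM in Old + PM, 2.79 to 12.8 CPM in Old + YM, 2.78 to 8.18 CPM in Old 1 to 4, 15.4 CPM in Old 5 and 1.52 to 2.69 CPM in Young, again with Old 5 at rank 2. Old 5 had the lowest proximal tubule sum of all libraries. Abundant markers weigh most in that sum. Over its 11 markers the median log2 change of Old over Young was -0.15, with 3 above 0 and 8 below. The part of any of these cell types in the levels of the proliferation genes was not tested. The changes between groups are given with and without Old 5 below.

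**Figure D2:**
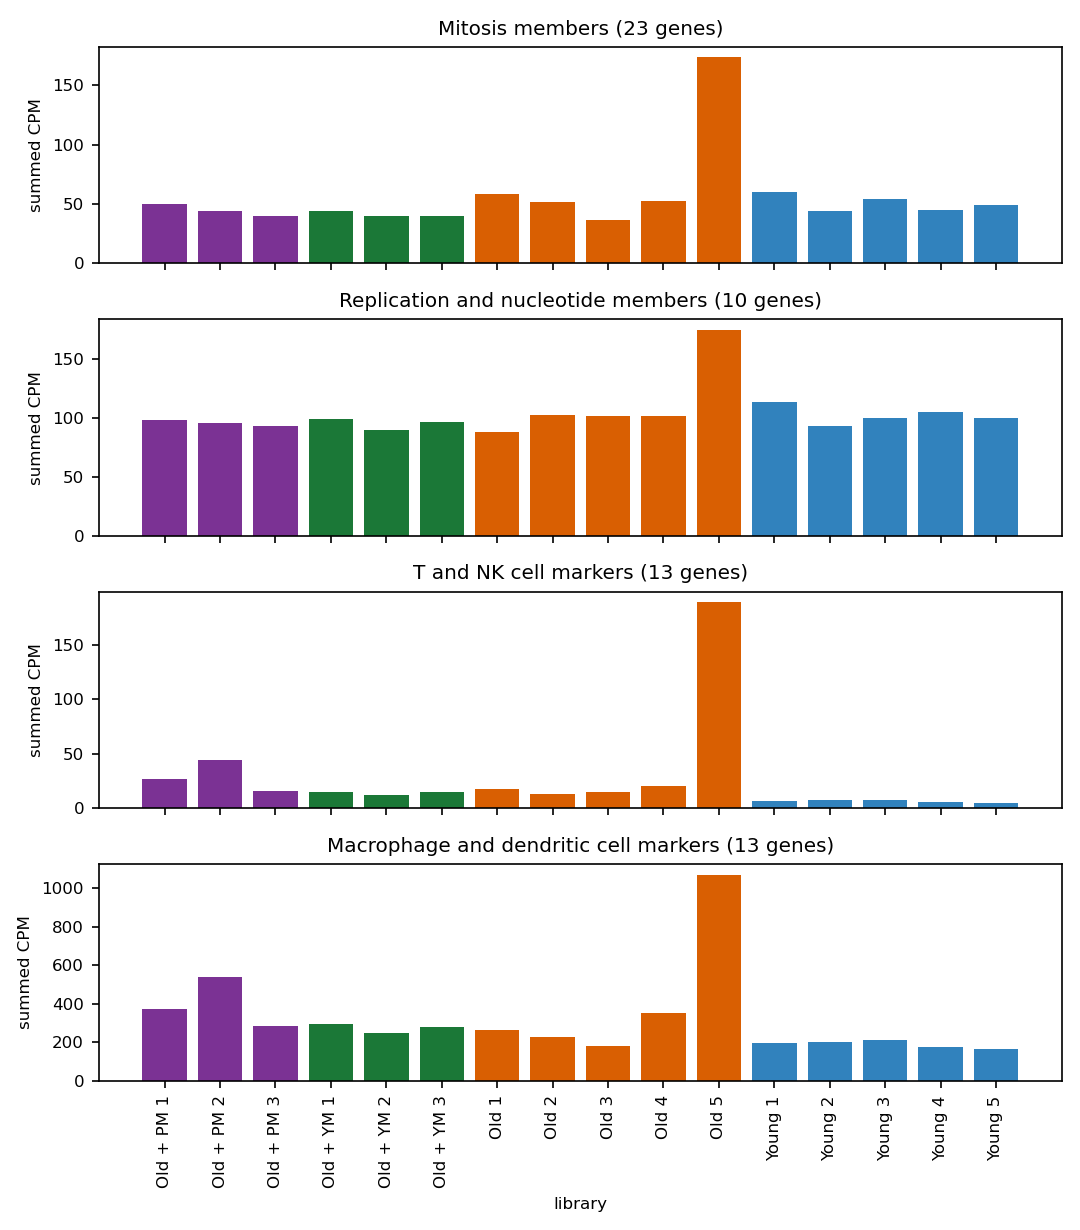
Bars give the summed CPM per library of 23 mitosis members, 10 replication and nucleotide members, 13 T and NK cell markers and 13 macrophage and dendritic cell markers, with Old + PM in purple, Old + YM in green, Old in orange and Young in blue. Old 5 is the highest bar in each panel, at 174 CPM for the mitosis members and 189 CPM for the T and NK cell markers.

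Between Old and Young kidneys, 1 of the 32 tested members changed. Cenpa, the histone variant that marks the centromere, was higher in Old, and no member was lower. That is 3.12% of the members, against 13.6% of all 14665 genes called in this comparison (6.47% higher). At an unadjusted p under 0.05, 8 members were higher and none lower. Those 8 are 25% of the members, against 28.1% of all genes in either direction and 14% higher. Fitted log2 changes were above 0 for 27 of 32 members (84.4%, against 52.6% of all genes), with a median of 0.49 over the members and 0.02 over all genes. Without Old 5, no member of 31 passed, against 1208 of the 14577 genes then tested. Above 0 were 17 of 31 members, against 7231 of those 14577 genes. The medians were 0.10 for the members and -0.00347 for all genes. Kif11, a mitotic motor, then fell under the filter.

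**Figure D3:**
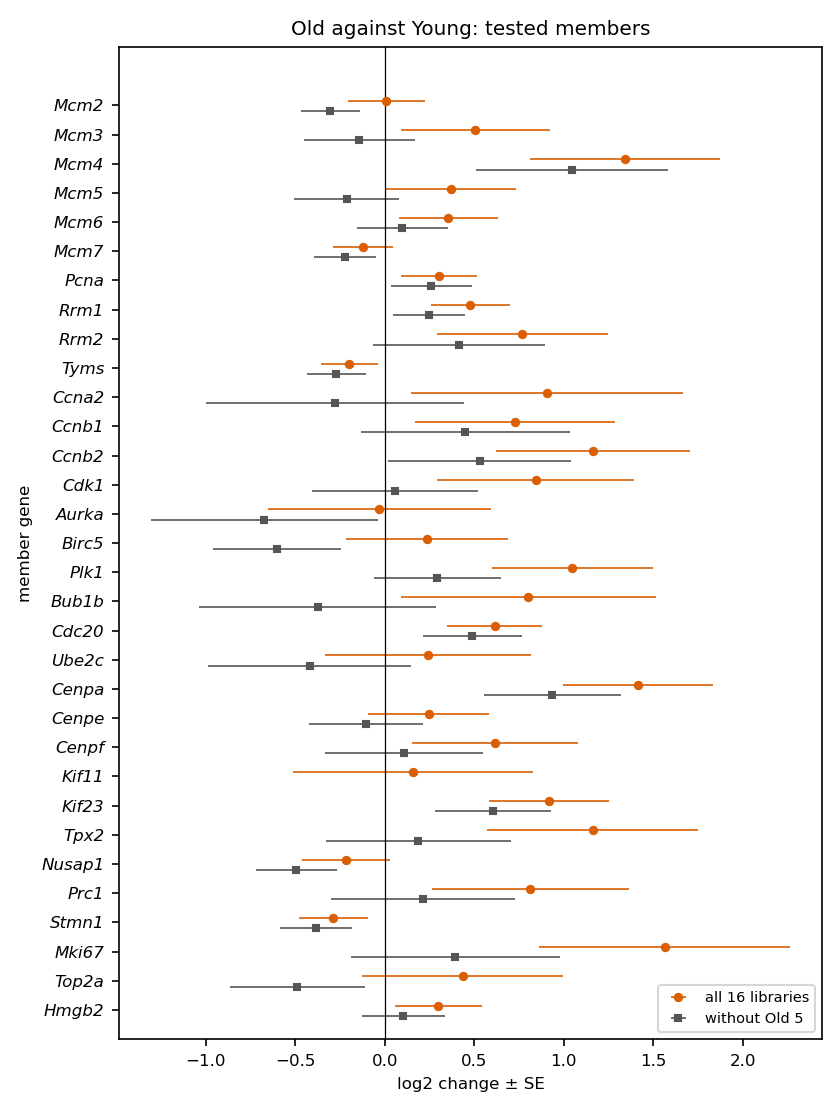
Points give the fitted log2 change of Old over Young for each tested member, with its standard error as a bar, from all 16 libraries (circles) and without Old 5 (squares). Of the 32 circles 27 lie above 0, and of the 31 squares 17 do.

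Among the genes of the centromere and kinetochore, Cenpa (chromosome 5, 30666777 to 30674830, plus strand, GRCm38) had 1.95, 1.41 and 1.03 CPM in Old + PM, 2.17, 2.31 and 1.84 CPM in Old + YM, 2.19, 2.197, 1.88, 1.95 and 6.08 CPM in Old, and 1.86, 0.812, 0.607, 0.754 and 1.31 CPM in Young, replicates in order from 1. All 5 Old libraries lay above all 5 Young libraries, with 1.88 CPM in the lowest Old and 1.86 CPM in the highest Young, and Old 1 to 4 were close together below Old 5. The means were 2.86 ± 1.81 CPM in Old (SD, n = 5) and 1.07 ± 0.515 CPM in Young (SD, n = 5), and the fitted change was log2 1.41 (SE 0.42, edgeR adjusted p = 0.0298). Of all tested genes, 4.21% had every Old library above every Young one. Without Old 5 the change was log2 0.94 (SE 0.38), with an edgeR adjusted p = 0.150, and the call was also lost without Young 2, Young 3 or Young 4 (adjusted p = 0.0673 to 0.0752) and with only the Old and Young libraries in the fit (0.0559). Cenpf, a large kinetochore protein of late cell cycle, had 2.14, 0.972 and 1.24 CPM in Old + PM, 2.17, 2.07 and 0.306 CPM in Old + YM, 3.18, 2.96, 1.04, 2.34 and 7.38 CPM in Old, and 2.17, 1.83, 2.02, 2.15 and 2.89 CPM in Young. Old + YM 3 was the lowest and Old 5 the highest library for it, and Old and Young overlapped (log2 0.62, SE 0.46, edgeR adjusted p = 0.417, and log2 0.11, SE 0.44 without Old 5). Cenpe, a kinesin of the kinetochore, had 5.68, 4.77 and 3.82 CPM in Old + PM, 1.45, 3.65 and 3.88 CPM in Old + YM, 4.47, 3.53, 4.06, 3.31 and 9.08 CPM in Old, and 5.57, 1.73, 4.85, 4.42 and 4.07 CPM in Young. Old 5 was again the highest and Old + YM 1 the lowest (log2 0.24, SE 0.34, edgeR adjusted p = 0.693, and log2 -0.11, SE 0.32 without Old 5 for Old over Young).

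**Figure D4:**
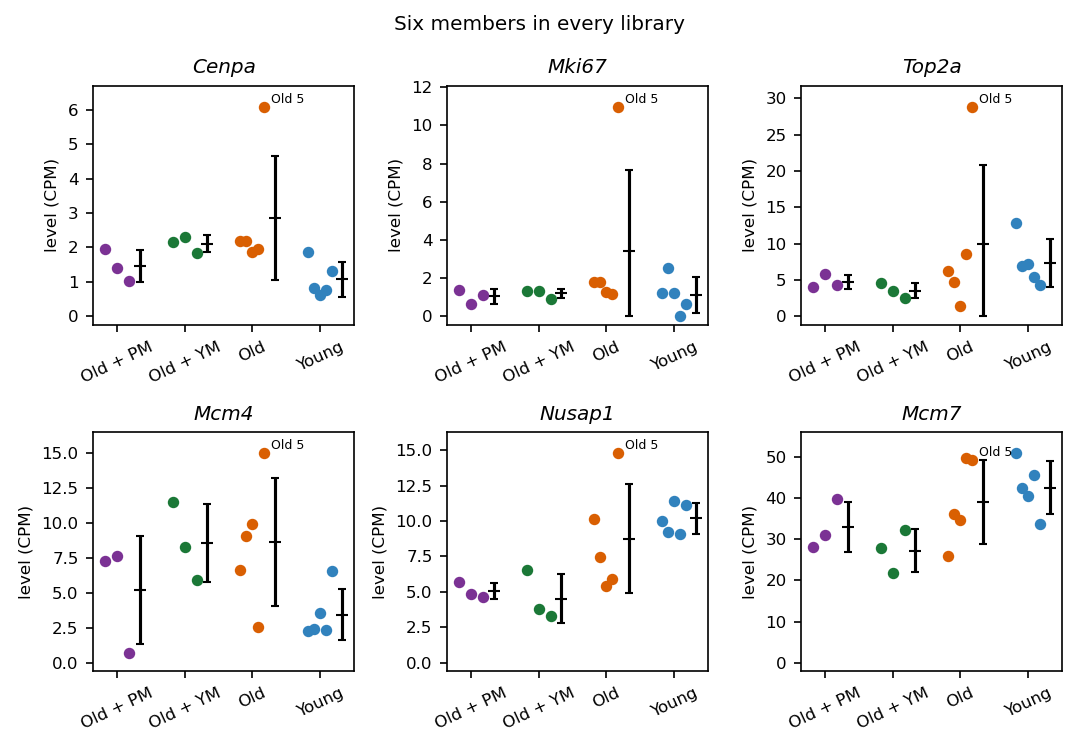
Points give the CPM of 6 members in each library by group, and the bar beside each group its mean with the SD (bars are cut at 0; n = 3, 3, 5 and 5 from left). Cenpa, Mki67 and Top2a show Old 5 far above the rest, Mcm4 is below 3 CPM in Old + PM 3, Old 4 and 3 Young libraries, and Nusap1 is lower in all treated libraries than in any Young one.

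Subunits of the replicative helicase overlapped between Old and Young in each case. Mcm4 had 7.26, 7.599 and 0.724 CPM in Old + PM, 11.5, 8.26 and 5.92 CPM in Old + YM, 6.66, 9.08, 9.899, 2.53 and 14.96 CPM in Old, and 2.27, 2.44, 3.54, 2.37 and 6.56 CPM in Young. Old + PM 3 with 7 counts, 4 of the 5 Young libraries and Old 4 were low, and the others stood at 5.92 CPM or more (log2 1.34, SE 0.53, edgeR adjusted p = 0.108 for Old over Young, and log2 1.05, SE 0.54 without Old 5). Mcm4 passed with DESeq2 (adjusted p = 0.034), without Old 4 (0.0378) and without Old + PM 3 (0.0313). Mcm2 had 9.495, 8.31 and 8.06 CPM in Old + PM, 8.17, 6.93 and 9.601 CPM in Old + YM, 7.96, 7.74, 6.98, 6.91 and 16.3 CPM in Old, and 8.77, 9.13, 8.39, 10.3 and 8.93 CPM in Young. Old 5 left the band of 6.91 to 10.3 CPM that held the other 15 libraries, and the change of Old over Young was log2 0.01 (SE 0.21, edgeR adjusted p = 0.986), or log2 -0.30 (SE 0.17) without Old 5. Mcm3 had 5.12, 4.77 and 3.72 CPM in Old + PM, 5.27, 5.95 and 5.11 CPM in Old + YM, 3.88, 5.64, 6.98, 4.09 and 19.7 CPM in Old, and 9.39, 4.06, 7.99, 4.09 and 2.63 CPM in Young, and its change was log2 0.50 (SE 0.42, edgeR adjusted p = 0.469) with Old 5 and log2 -0.14 (SE 0.31) without it. Mcm6 had 16.8, 11.4 and 8.89 CPM in Old + PM, 12.5, 13.97 and 9.81 CPM in Old + YM, 15.2, 11.8, 12.9, 7.79 and 23.3 CPM in Old, and 9.39, 7.105, 10.9, 10.1 and 18.2 CPM in Young. Old over Young was log2 0.35, SE 0.27, edgeR adjusted p = 0.436, and log2 0.10, SE 0.25 without Old 5. Old 5 was the highest for it and Young 5, at 18.2 CPM, the next. Mcm5 ranged from 1.94 to 4.75 CPM in 15 libraries and had 11.5 CPM in Old 5 (log2 0.37, SE 0.37, edgeR adjusted p = 0.56, and log2 -0.21, SE 0.29 without Old 5).

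Mcm7, also of the helicase, was not highest in Old 5, unlike its partners. It had 28.2, 31.1 and 39.7 CPM in Old + PM, 27.8, 21.8 and 32.2 CPM in Old + YM, 25.9, 36.1, 34.7, 49.7 and 49.2 CPM in Old, and 50.9, 42.4, 40.4, 45.6 and 33.6 CPM in Young. Young 1 and Old 4 were higher than Old 5, and the change of Old over Young was log2 -0.12 (SE 0.17, edgeR adjusted p = 0.684), and log2 -0.22 (SE 0.17) without Old 5. Its last 1000 bases also hold exons of Cops6 on the other strand, and the microRNA genes Mir25 and Mir93 on the same strand. Without a stated strand setting, reads of Cops6 cannot be told apart from those of Mcm7. For Mir25 and Mir93 no strand setting would separate them. Pcna, the clamp that holds the polymerase on DNA, had 7.45, 6.54 and 4.34 CPM in Old + PM, 6.93, 9.24 and 6.84 CPM in Old + YM, 6.17, 4.49, 7.29, 8.27 and 7.48 CPM in Old, and 4.54, 5.07, 5.97, 5.17 and 6.56 CPM in Young. Old over Young was log2 0.30, SE 0.21, edgeR adjusted p = 0.375, and log2 0.26, SE 0.23 without Old 5. Old + YM 2 and Old 4 were the highest libraries for Pcna, and Old 5 had rank 3 of 16.

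Of the genes that supply nucleotides, Rrm1, the large subunit of ribonucleotide reductase, had 6.89, 7.69 and 8.79 CPM in Old + PM, 9.41, 9.5997 and 8.27 CPM in Old + YM, 7.06, 9.65, 8.75, 8.08 and 15.5 CPM in Old, and 5.47, 5.58, 6.07, 9.91 and 8.27 CPM in Young. Old 5 was the highest, and the other Old libraries lay within the range of Young 1 to 5 (log2 0.48, SE 0.22, edgeR adjusted p = 0.162 for Old over Young, and log2 0.25, SE 0.20 without Old 5). Tyms, which makes thymidylate, had 13.4, 12.4 and 14.1 CPM in Old + PM, 11.1, 10.7 and 13.3 CPM in Old + YM, 10.7, 11.9, 10.9, 8.66 and 13.2 CPM in Old, and 15.99, 13.3, 13.04, 11.7 and 9.45 CPM in Young. Its libraries stayed between 8.66 and 15.99 CPM. Old 5 had rank 6 of 16, and Tyms did not pass (log2 -0.20, SE 0.16, edgeR adjusted p = 0.45, and log2 -0.27, SE 0.17 without Old 5). Rrm2, the small reductase subunit made mainly in S phase, ranged from 0.406 to 2.69 CPM in 15 libraries and had 3.49 CPM in Old 5 (log2 0.77, SE 0.48, edgeR adjusted p = 0.308, and log2 0.41, SE 0.48 without Old 5).

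Cyclins of S phase and mitosis and their kinase were at few counts outside Old 5. Cdk1, the kinase that drives mitosis, ranged from 0.310 to 3.71 CPM in 15 libraries, with Old + PM 3 the lowest, and had 11.8 CPM in Old 5. Ccnb2, a mitotic cyclin, ranged from 0.310 to 3.34 CPM, again lowest in Old + PM 3, and had 7.28 CPM in Old 5. Ccna2, the cyclin of S phase and G2, and Ccnb1, the main mitotic cyclin, had 4.49 and 2.29 CPM in Old 5, against highest values of 1.65 and 1.56 CPM elsewhere. Fitted changes of Old over Young were log2 0.91 (SE 0.76) for Ccna2, 0.73 (SE 0.56) for Ccnb1, 1.16 (SE 0.54) for Ccnb2 and 0.84 (SE 0.55) for Cdk1, with none past the threshold. Without Old 5 they were -0.28, 0.45, 0.53 and 0.06.

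The mitotic kinases, the checkpoint and the ubiquitin ligase showed Old 5 in the lead without exception. Plk1, the Polo kinase, ranged from 1.31 to 4.08 CPM in 15 libraries and had 12.8 CPM in Old 5 (log2 1.05, SE 0.45, edgeR adjusted p = 0.13, and log2 0.29, SE 0.35 without Old 5). Birc5, which encodes survivin of the chromosomal passenger complex, ranged from 1.12 to 3.88 CPM elsewhere and had 9.88 CPM in Old 5. Bub1b, a checkpoint kinase-like protein, Aurka, a spindle pole kinase, and Ube2c, the ubiquitin-conjugating enzyme of mitotic exit, had 4.19, 2.09 and 3.69 CPM in Old 5 and at most 2.39, 1.62 and 2.53 CPM elsewhere. Cdc20, which activates the ligase that Ube2c serves, had 3.82, 2.56 and 3.204 CPM in Old + PM, 2.58, 2.31 and 3.17 CPM in Old + YM, 4.97, 4.97, 3.65, 4.96 and 6.68 CPM in Old, and 5.06, 3.25, 3.24, 3.02 and 1.84 CPM in Young. Young 1 lay above Old 1 to 4, so the groups overlapped, and Old 5 stood only 1.32 times above the next library (log2 0.61, SE 0.27, edgeR adjusted p = 0.134, and log2 0.49, SE 0.27 without Old 5 for Old over Young). The last 1000 bases of Ccna2 hold exons of Exosc9 on the other strand. Those of Cdc20 hold exons of Elovl1, and those of Ube2c exons of Tnnc2, so their reads could include the partner's.

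Among motors and microtubule proteins, Kif23, a kinesin of the central spindle, had 4.56, 4.42 and 7.03 CPM in Old + PM, 5.27, 5.35 and 7.86 CPM in Old + YM, 4.67, 4.59, 4.79, 6.42 and 11.3 CPM in Old, and 1.03, 2.74, 4.15, 3.99 and 4.99 CPM in Young. Old 1 to 3, at 4.59 to 4.79 CPM, lay below the highest Young library at 4.99 CPM, and the change was log2 0.92 (SE 0.34, edgeR adjusted p = 0.0759), and log2 0.60 (SE 0.32) without Old 5. Kif23 passed with DESeq2 (adjusted p = 0.0494) and without Young 5 (0.0403). Nusap1, a spindle protein that bundles microtubules, had 5.68, 4.86 and 4.65 CPM in Old + PM, 6.51, 3.77 and 3.27 CPM in Old + YM, 10.1, 7.45, 5.42, 5.94 and 14.8 CPM in Old, and 10.01, 9.24, 11.4, 9.05 and 11.2 CPM in Young. Young libraries lay between 9.05 and 11.4 CPM, Old 2 to 4 below them and Old 5 above (log2 -0.22, SE 0.25, edgeR adjusted p = 0.615, and log2 -0.49, SE 0.22 without Old 5). Stmn1, which destabilizes microtubules and is also made by cells that do not divide, had 22.6, 25.7 and 35.8 CPM in Old + PM, 18.4, 20.7 and 22.98 CPM in Old + YM, 21.5, 24.8, 15.5, 29.2 and 30.3 CPM in Old, and 35.1, 35.2, 24.7, 34.05 and 19.04 CPM in Young. Old 5 had rank 5 of 16 for Stmn1, and the groups overlapped (log2 -0.29, SE 0.19, edgeR adjusted p = 0.352, and log2 -0.38, SE 0.20 without Old 5). Tpx2, an activator of Aurora A on the spindle, ranged from 0.486 to 2.23 CPM in 15 libraries and had 6.38 CPM in Old 5, and Prc1, a cross-linker of the central spindle, ranged from 0.413 to 4.57 CPM and had 8.28 CPM in Old 5. The last 1000 bases of Prc1 hold exons of Rccd1 on the other strand.

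For chromatin of dividing cells, Mki67, the Ki-67 protein used to mark cycling cells and singled out here after its values were seen, had 1.396, 0.619 and 1.14 CPM in Old + PM, 1.34, 1.34 and 0.919 CPM in Old + YM, 1.79, 1.82, 1.25, 1.17 and 10.97 CPM in Old, and 1.24, 2.54, 1.21, 0 and 0.656 CPM in Young. Old 5 held 110 counts and every other library at most 25, with 0 in Young 4, and Old 5 was 4.32 times the next library in CPM. The change of Old over Young was log2 1.56 (SE 0.70, edgeR adjusted p = 0.153), and log2 0.39 (SE 0.58) without Old 5. Top2a, the topoisomerase that untangles DNA in mitosis, had 4.003, 5.83 and 4.34 CPM in Old + PM, 4.55, 3.52 and 2.45 CPM in Old + YM, 6.26, 4.68, 1.46, 8.56 and 28.8 CPM in Old, and 12.9, 6.902, 7.18, 5.39 and 4.33 CPM in Young. Young 1 was the second highest library and Old 3 the lowest, and the change of Old over Young was log2 0.43 (SE 0.56, edgeR adjusted p = 0.671) with Old 5 and log2 -0.49 (SE 0.38) without it. Hmgb2, a chromatin protein abundant in cycling cells, had 20.2, 18.5 and 9.72 CPM in Old + PM, 21.5, 21.3 and 24.002 CPM in Old + YM, 19.8, 16.4, 21.99, 11.1 and 29.6 CPM in Old, and 12.7, 11.3, 17.4, 16.9 and 22.3 CPM in Young. Old + PM 3 and Old 4 were the lowest libraries for Hmgb2 and Old 5 the highest (log2 0.30, SE 0.24, edgeR adjusted p = 0.459, and log2 0.10, SE 0.23 without Old 5).

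Other genes of the cell cycle, taken from 4 lists, changed between Old and Young in few cases, and not all in one direction. Of 48 tested replication genes outside the members, none passed in edgeR (8 higher and 2 lower at an unadjusted p under 0.05), with a median log2 change of 0.16. Of 59 tested mitosis genes, 3 rose and 2 fell, with a median of 0.10. Kif20b, a kinesin of cytokinesis, was lower, at 5.79 to 11.1 CPM in Old, against 17.4 to 40.7 CPM in Young, a change of log2 -1.69 (SE 0.27, adjusted p = 0.000806), and Spc25, a kinetochore subunit, was lower, at 18.6 to 27.4 CPM in Old, against 29.5 to 37.1 CPM in Young, a change of log2 -0.57 (SE 0.14, adjusted p = 0.0112). For both, the Old and Young libraries did not overlap, and both passed without Old 5 as well. Wee1, a kinase that holds CDK1 inactive and an output of the circadian clock, rose (log2 0.81, SE 0.21, adjusted p = 0.0149), as did Tubb5, a tubulin (log2 0.49, SE 0.16, adjusted p = 0.0425), and Iqgap3, a scaffold protein (log2 2.24, SE 0.71, adjusted p = 0.0414), which reached 2.09 CPM at most in Old. Without Old 5, Tubb5 did not pass (adjusted p = 0.156) and Iqgap3 was removed by the filter.

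Of 22 tested genes of G1 cyclins, their kinases and the E2F and RB families, Ccnd1 rose and E2f5 fell, with a median of 0.12. Ccnd1, cyclin D1, which links growth signals to the cell cycle, had 573, 582, 831, 415 and 901 CPM in Old, against 219.99, 213, 194, 215 and 339 CPM in Young. All Old libraries lay above all Young ones (log2 1.48, SE 0.24, adjusted p = 0.00115, and log2 1.34 without Old 5, adjusted p = 0.0036). E2f5, a repressor E2F, fell (log2 -0.57, SE 0.15, adjusted p = 0.0148). Of 6 tested inhibitors of cyclin-dependent kinases, 3 rose and none fell, with a median of 0.47. Cdkn1a, which encodes p21, had 28.4, 29.3, 26.99, 47.5 and 51.4 CPM in Old, against 15.8, 15.2, 18.4, 23.7 and 13.3 CPM in Young, and each Old library was above each Young one (log2 1.09, SE 0.19, adjusted p = 0.001, and log2 0.93 without Old 5, adjusted p = 0.00272). Cdkn1c, which encodes p57, rose (log2 0.49, SE 0.09, adjusted p = 0.00166) without overlap between 49.2 to 60.1 CPM in Old and 37.9 to 41.4 CPM in Young, and Cdkn2c, which encodes p18, rose (log2 0.59, SE 0.19, adjusted p = 0.0454) and had an adjusted p = 0.0535 without Old 5. Against these counts stands the 13.6% of all genes called.

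Treatment with either formula at old age was compared with the same 5 Old libraries, so the 2 comparisons share Old 5. In Old + PM against Old, no member of 32 changed in edgeR, as for all 14665 genes (0%). At an unadjusted p under 0.05, 3 members were lower and none higher, against 3.52% of all genes lower and 6.16% in either direction, and DESeq2 and limma-voom called no member. Log2 changes were below 0 for 28 of 32 members, against 53.8% of all genes, with a median of -0.64 over the members and -0.02 over all genes. Without Old 5, 10 of 31 members were above 0, 49.9% of all genes were, and the median over the members was -0.09.

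In Old + YM against Old, no member of 32 changed in edgeR, against 3 genes of 14665 (0.0205%). At an unadjusted p under 0.05, 3 members (9.38%) were lower and none higher, against 4.89% of all genes lower and 9.47% in either direction, and DESeq2 and limma-voom called no member. Log2 changes were below 0 for 28 of 32 members, against 54.5% of all genes, with a median of -0.59 over the members and -0.03 over all genes. Without Old 5, 15 of 31 members were above 0, against 7379 of 14577 genes. The median was then -0.05 over the members and 0.005 over all genes.

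**Figure D5:**
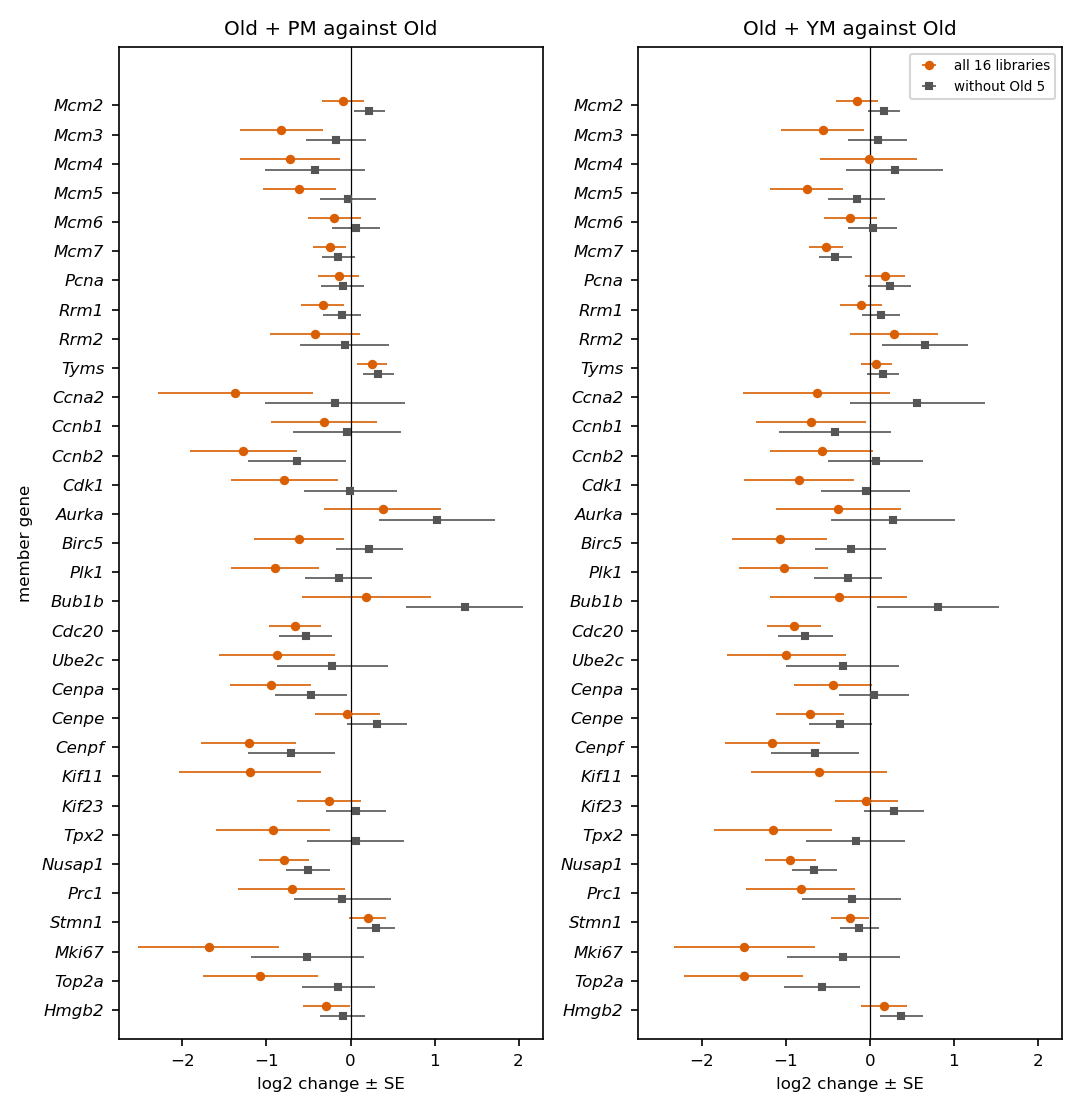
Points give the fitted log2 change of each tested member in Old + PM over Old (left) and Old + YM over Old (right), with its standard error, from all 16 libraries (circles) and without Old 5 (squares). In each panel 28 of 32 circles lie below 0. The medians of the squares, -0.09 and -0.05, are nearer to 0 than those of the circles, -0.64 and -0.59. Some single squares, such as those of Bub1b, lie farther from 0 than their circles.

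By role, the 20 tested mitosis members had a median log2 change of -0.83 in Old + PM over Old and -0.83 in Old + YM over Old, and without Old 5 the medians of 19 were -0.14 and -0.23. For the 10 replication and nucleotide members the medians were -0.29 in Old + PM over Old and -0.13 in Old + YM over Old, and without Old 5 they were -0.08 and 0.14. Mki67 averaged 1.05 ± 0.396 CPM in Old + PM (SD, n = 3) and 3.399 ± 4.24 CPM in Old (SD, n = 5), with log2 -1.69 (SE 0.84, edgeR adjusted p = 0.811), and log2 -0.51 (SE 0.67) without Old 5. In Old + YM it averaged 1.1999 ± 0.243 CPM (SD, n = 3), with log2 -1.50 (SE 0.84, edgeR adjusted p = 0.587), and log2 -0.32 (SE 0.67) without Old 5. All 6 treated libraries, at 0.619 to 1.40 CPM, lay below Old 5 and near Old 1 to 4, at 1.17 to 1.82 CPM.

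The members with the smallest unadjusted p were Nusap1, Cenpf and Cdc20 in Old + PM over Old, and Nusap1, Cdc20 and Mcm7 in Old + YM over Old. Nusap1 averaged 5.06 ± 0.543 CPM in Old + PM (SD, n = 3) and 8.74 ± 3.83 CPM in Old (SD, n = 5), with log2 -0.79 (SE 0.30, edgeR adjusted p = 0.79), and log2 -0.51 (SE 0.26) without Old 5. In Old + YM it averaged 4.52 ± 1.75 CPM (SD, n = 3), with log2 -0.95 (SE 0.30, edgeR adjusted p = 0.324), and log2 -0.66 (SE 0.27) without Old 5. The treated libraries reached 6.51 CPM and the lowest Old library had 5.42 CPM, so the groups overlapped. Cdc20 had log2 -0.66 (SE 0.31, edgeR adjusted p = 0.801) in Old + PM over Old and log2 -0.90 (SE 0.32, edgeR adjusted p = 0.382) in Old + YM over Old. Without Old 5 these were log2 -0.53 (SE 0.32) and log2 -0.77 (SE 0.32). It was the 1 member whose Old + YM libraries, at 2.31 to 3.17 CPM, lay wholly below the Old ones, at 3.65 to 6.68 CPM, and 3.95% of all genes had such a gap. Cenpf had log2 -1.21 (SE 0.56, edgeR adjusted p = 0.793) in Old + PM over Old, and Mcm7 log2 -0.52 (SE 0.20, edgeR adjusted p = 0.427) in Old + YM over Old, both with overlapping libraries. Without Old 5, Cenpf had log2 -0.71 (SE 0.52) and Mcm7 log2 -0.41 (SE 0.20).

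Between the formulas, in Old + PM against Old + YM, no member of 32 changed in edgeR, nor did any of 14665 genes (0%). DESeq2 called 58 of all genes, and neither it nor limma-voom called a member. No member had an unadjusted p under 0.05, which 12.8% of all genes had. The median log2 change was 0.09 over the members and 0.01 over all genes, with 19 of 32 members above 0, against 51.5% of all genes. The smallest unadjusted p values were those of Stmn1 (log2 0.44, SE 0.25, edgeR adjusted p = 0.46), Cenpe (log2 0.67, SE 0.45, edgeR adjusted p = 0.53) and Hmgb2 (log2 -0.46, SE 0.31, edgeR adjusted p = 0.54). Hmgb2 and Ccnb2 were lower in all 3 Old + PM libraries than in all 3 Old + YM libraries, as were 11.9% of all genes. The standard error of a member's log2 change had a median of 0.59 here. Changes of that size, and somewhat larger ones, could not be told from 0. Depth and the spread among 3 libraries per group both enter that error.

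In the other lists no gene passed in any treatment comparison. The gene with the smallest unadjusted p of each list in Old + PM over Old was Tk1, thymidine kinase (log2 -0.74, SE 0.24, adjusted p = 0.79), Hmmr, a spindle protein (log2 -1.85, SE 0.66, adjusted p = 0.79), E2f2, an activating E2F (log2 -0.85, SE 0.31, adjusted p = 0.79), and Cdkn2d, a CDK inhibitor (log2 -0.40, SE 0.25, adjusted p = 0.849). In Old + YM over Old it was Pola1, a subunit of DNA polymerase alpha (log2 -0.73, SE 0.20, adjusted p = 0.276), Incenp of the chromosomal passenger complex (log2 -0.999, SE 0.33, adjusted p = 0.335), the growth regulator Myc (log2 2.33, SE 1.02, adjusted p = 0.496) and Cdkn1b, a CDK inhibitor (log2 0.15, SE 0.13, adjusted p = 0.746). In Old + PM over Old + YM it was Orc3 of the origin recognition complex (log2 0.44, SE 0.18, adjusted p = 0.327), Cks2, a CDK subunit (log2 -1.21, SE 0.41, adjusted p = 0.283), Myc (log2 -3.32, SE 1.31, adjusted p = 0.323) and Cdkn1b (log2 -0.33, SE 0.15, adjusted p = 0.365). All of these adjusted p-values are from edgeR.

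Across the 16 libraries, members differed in how closely they followed one another. Over log2 CPM, Tpx2 had a Pearson r of 0.80 with the mean of the other tested mitosis members, Top2a 0.75, Plk1 0.75 and Mki67 0.69, while Stmn1 had 0.15 and Tyms 0.09. Without Old 5, over 15 libraries, the values were 0.32 for Tpx2, 0.45 for Top2a, 0.03 for Plk1, 0.19 for Mki67, -0.09 for Stmn1 and -0.16 for Tyms. These libraries share depth and scaling, and counts of a few reads add noise, so the values describe them only. Among the 5 genes outside the members most like that mean over 16 libraries, of 14633 compared, were D17H6S56E-5 (r = 0.88), Ccnd2, which encodes cyclin D2 (0.86), Pycard, an inflammasome adaptor (0.85), and Iigp1, an interferon-induced GTPase (0.84). Without Old 5 the values of these genes were 0.31, 0.51, 0.26 and 0.47. Ccnd2 had 113.6 CPM in Old 5 and at most 63.4 CPM elsewhere.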

How the data were processed

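Kidney RNA was measured by QuantSeq 3' sequencing. The deposited values are raw counts per gene symbol, made by the authors with Bowtie2 and bedtools on build mm10, per the submitters' processing notes; versions, annotation and strand setting are not given there. In R 4.3.3, edgeR 4.0.16 fitted all 16 libraries in one quasi-likelihood model with a term for group, after filterByExpr (minimum count 10) and TMM scaling. Adjustment (Benjamini-Hochberg) covered all 14665 genes, at a threshold of 0.05. No 2 libraries of a group agreed within sampling noise (lowest chi-square per degree of freedom 7.24 over 26 pairs). The fit was tested on simulated data.

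Alternatives were upper quartile scaling, library sizes without 17 mitochondrial transcripts, DESeq2 1.42.0, limma-voom (limma 3.58.1), no filter, a minimum count of 5, only the groups compared, replicate number as a block, and leaving out each library. Described in full are members that passed, the 3 with the smallest unadjusted p of each comparison and those averaging 5 CPM or more. Members and lists were chosen with earlier results of these data known, so no p is given over a list. Coordinates come from GENCODE M21 (GRCm38, the same build as mm10), where all 35 members were found. Pseudogene copies Tyms-ps and Ccnb1-ps held 1 count and 0 counts over 16 libraries. Some items, among them 1 of the 5 genes most like the members, are not reported here.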

Additional observations from a re-analysis of the deposited data

Results flagged for a closer look

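Among 35 members in the 5 Old and in the 5 Young libraries, 16 of 70 groups held a library whose gap to its nearest neighbour was over 0.71 of the group's range. For values with a normal spread, chance would give this in about 1 in 20 groups. Counts this low need not have such a spread, and the members are not independent of each other. In 15 of the 16 the library was Old 5, always high, and 3.57% of all tested genes had Old 5 high by this measure.

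The values in Old 5 were 16.3 CPM for Mcm2, 19.7 CPM for Mcm3 and 11.5 CPM for Mcm5, of the helicase. Among kinases and their partners they were 4.49 CPM for Ccna2, 11.8 CPM for Cdk1, 9.88 CPM for Birc5, 12.8 CPM for Plk1, 4.19 CPM for Bub1b and 3.69 CPM for Ube2c. Of centromere and spindle genes, Cenpa had 6.08 CPM, Cenpe 9.08 CPM, Kif23 11.3 CPM and Tpx2 6.38 CPM. Mki67 had 10.97 CPM and Top2a 28.8 CPM. The remaining case was Aurkb in Young 3, at 0.101 CPM, which is 1 count where the other Young libraries had 0.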

How the results depend on the processing

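The number of members called was 0 in the 3 comparisons of treated libraries under every alternative run. Between Old and Young it was 1, Cenpa, and became 3 with DESeq2 (Mcm4, Cenpa and Kif23), 0 with only the groups compared, and 0 to 2 when 1 library was left out, 0 being without Young 2, Young 3, Young 4 or Old 5. With the replicate block it was 2 (Cenpa and Kif23). Deviations of libraries that share a number correlated by -0.0862 to 0.158 over all genes. No pairing by number was seen, though so few libraries cannot exclude a weak one. The median log2 change of Old + PM over Old + YM ran from -0.13, without Old + PM 1, to 0.17 when 1 library was left out.

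Some uncalled changes of Old over Young turned sign. Mcm2, at 0.01, was -0.072 with limma-voom, -0.000789 at a minimum count of 5, -0.069 with the replicate block, and -0.30 to 0.10 without 1 library. Top2a was -0.11 with limma-voom, -0.071 with the replicate block and -0.49 to 0.73 without 1 library, and Mcm3 -0.14 to 0.77 without 1 library, the lowest values being without Old 5. Without mitochondrial transcripts in the library sizes, the mean summed level of the members was 232.1 CPM in Old + PM, 226.7 CPM in Old + YM, 289.4 CPM in Old and 246.9 CPM in Young, against 184.5, 179.6, 232.2 and 198.4 CPM as reported, as all libraries lose part of their total. The median of all genes moved by under 0.1 log2 with either scaling. Over 552 alternatives of single members, 531 left sign and call as reported. Only Cenpa had a call to lose, and it lost that call in 5 of its 24 alternatives. For the other members only the sign had to hold without a new call. Some alternatives left out a library that was not in the comparison. Depth limits the mitosis members: Mki67 held 0 to 25 counts in the 15 libraries other than Old 5.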

Other observations

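Old + PM 3 was the lowest of 16 libraries for 6 of 32 tested members (18.8%), against 9.45% of all genes. Its counts were 7 for Mcm4, 3 for Cdk1, 3 for Ccnb2 and 4 for Prc1, where Old + PM 1 and Old + PM 2 had 78 and 86, 38 and 42, 18 and 19, and 32 and 34. In the same library Mki67 had 11 counts, against 15 and 7 in Old + PM 1 and Old + PM 2.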
